A study of Mus musculus with 36 samples.

Results

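The neocortex of mild Chd8 hypomorphs was compared with that of Chd8 heterozygotes at embryonic day 12.5 (E12.5) by sequencing of mRNA. The comparison holds 6 of the 18 libraries of the series: 3 labelled neo/neo (Chd8 neo/neo) and 3 labelled HET (Chd8 +/-), chosen by their labels alone and each made from the neocortex of 1 embryo, with replicates taken from different litters. The other E12.5 libraries were 3 labelled CTRL (Chd8 +/+) and 3 labelled neo/- (Chd8 neo/-). They were used to estimate the spread between embryos and as a further pair of groups with no embryo in common. The E10.5 libraries were not used here. All embryos were on a C57Bl/6J background.

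The neo allele carries a selection cassette in the intron after exon 3, which disturbs splicing of the transcript, and the null allele lacks exon 3. Neo/neo embryos therefore carry 2 disturbed copies and no null copy, and were bred from neo/+ parents, whereas HET embryos carry 1 null and 1 intact copy and were bred from +/- parents and C57BL/6J mice. Genotype and breeding scheme cannot be told apart in this comparison. The study ranks CTRL, HET, neo/neo and neo/- by falling dosage of CHD8, from its own assays of spliced transcript and protein that were not analysed here, and the comparison asks which genes respond to a further step down below the heterozygous level.

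CHD8 is a chromatin remodeller that uses ATP to move nucleosomes and sits at the promoters of many active genes. Loss of 1 copy is among the best established causes of autism with a large head in humans. At E12.5 the neocortex is made mostly of apical progenitors, also called radial glia, which divide at the ventricle and replicate their DNA in each cycle. Some of their daughters become intermediate progenitors, and the first postmitotic neurons, which express microtubule proteins such as doublecortin and the early parts of the synapse, settle above them.

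Counts were deposited per gene and sequencing run, and both runs of each library were summed. Total counts were between 38774591 and 61051667 per library in the 6 libraries. Levels are given as CPM, the counts of a gene after scaling of every library to the same total, and differences as log2 fold changes of neo/neo over HET with their standard error (SE). Of 46603 genes in the table, 18810 passed the filter on low counts and entered the quasi-likelihood test of edgeR. A gene was called when its p-value, adjusted over all genes tested by the Benjamini-Hochberg method, was under 0.05. In bulk tissue, fewer cells of a type and less RNA per cell cannot be told apart.

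Xist, the RNA of the inactive X chromosome, was at 1458 CPM in HET replicate 1, 2011 CPM in neo/neo replicate 1 and 1828 CPM in neo/neo replicate 2, and at 2.03 to 2.49 CPM in the other 3 libraries, where 4 Y-linked genes summed to between 270.2 and 285 CPM. The sexes were thus unequally mixed, with 2 Xist-high libraries in neo/neo and 1 in HET. HET replicate 2 held more RNA of diencephalon and midbrain genes than any other of the 6 libraries, with a summed level over 31 genes of 544 CPM, against 217 and 189.7 CPM in the other HET libraries and 210.4 to 296 CPM in neo/neo. In that list Gbx2 was at 9.12 CPM in HET replicate 2 and at 2.91 and 3.10 CPM in the other HET libraries, and En1, a midbrain marker, was at 1.46 CPM there and at most 0.083 CPM in the other 5. The part of sex and of tissue from outside the cortex in the results was not tested beyond the values given beside them.

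The labelled tissue was checked against markers. Emx1, a factor of the dorsal telencephalon, was between 35.8 and 69.3 CPM, Pax6 between 159 and 185 CPM, and Tbr1, a factor of early cortical neurons, between 183 and 245 CPM. None of these 3 markers was called. Markers of other cells and regions were present too, some of them above Emx1. Hbb-y of red blood cells was at 1582 to 2686 CPM and Col1a1 of mesenchyme at 77.5 to 225 CPM. Dlx2 and Nkx2-1 of the ventral telencephalon were at 112 to 146 CPM and 55.6 to 99.5 CPM. Pecam1 of endothelium was at 34.2 to 39.5 CPM, Csf1r of microglia at 9.97 to 14.2 CPM and Epcam of epithelium at 2.89 to 5.70 CPM. Krt5, a keratin of the skin, was at 1.68 CPM in HET replicate 2 and at most 0.033 CPM in the other 5 libraries.

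Chd8 itself, the gene that was altered, was measured first. Its level was 165, 170.2 and 165 CPM in the 3 HET libraries, 213, 203 and 211 CPM in neo/neo, 237, 235 and 239 CPM in CTRL and 158, 147 and 142 CPM in neo/-. Both compared groups lay below CTRL without overlap, and every neo/neo library lay above every HET library. Neo/neo exceeded HET by a log2 value of 0.33 ± 0.043 (SE, n = 3 against 3; adjusted p = 0.00897 by edgeR's quasi-likelihood test). The order of HET and neo/neo in the counts was therefore the reverse of their order in CHD8 dosage. The counts cover all exons of the gene, on chr14:52198151-52257723 (GRCm38, minus strand), and do not separate transcripts that run through the cassette from intact ones, so these counts alone do not check the 2 labels against each other. The names neo/neo and HET below stand for the libraries so labelled.

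Of the 14 other tested genes within 250 kb of Chd8, 1 was called. Zfp219, a zinc finger gene beside Chd8, was at 187, 188 and 182 CPM in HET and 206, 214 and 209 CPM in neo/neo, a log2 fold change of 0.18 ± 0.048 (adjusted p = 0.0466, edgeR). This call was lost when replicate numbers were entered as a block (adjusted p = 0.0506). The other neighbours had log2 fold changes between -0.27 and 0.50.

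**Figure D1:**
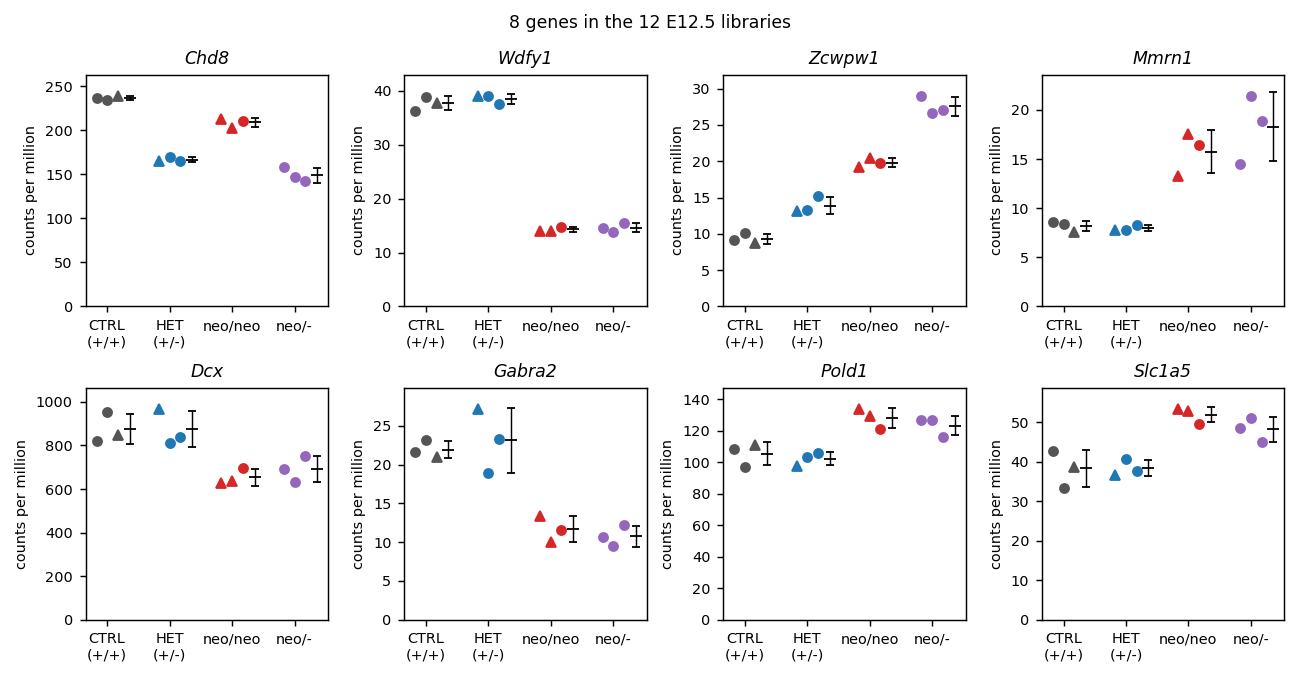
Levels of 8 genes in CPM (y axis, from 0) in each of the 12 E12.5 libraries, grouped by genotype on the x axis. Points are libraries, triangles mark those with Xist above Y-linked counts, and the bars give the mean ± SD (n = 3). Chd8 lies between CTRL and HET in neo/neo, and Wdfy1 is at 14.05 to 14.7 CPM in neo/neo against 37.5 to 39.1 CPM in HET.

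Across the transcriptome, 994 genes were called between neo/neo and HET, 5.28% of the 18810 tested. Of these, 377 were higher in neo/neo (2.00% of those tested) and 617 were lower (3.28%). The changes were small. The median size of a called change was 0.28 on the log2 scale, only 124 called genes (12.5%) changed by 1.5-fold or more, and 37 by 2-fold or more. In 986 of the 994 the 3 neo/neo and the 3 HET libraries did not overlap, which was also so for 25.5% of all tested genes.

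The count rested on the spread shared by 12 libraries and on single embryos. A fit of only the 6 libraries called 42 genes (0.232% of 18117 tested), 39 of them among the 994, and 23, 60 or 62 genes were called without neo/neo replicate 2, neo/neo replicate 1 or HET replicate 1, against 2100 without neo/neo replicate 3. The fit with sex-linked expression as a term called 387 genes and the fit of 8 libraries left after removal of the 4 Xist-high ones, with a single neo/neo embryo, called 3.

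The gene with the smallest adjusted p was Wdfy1, which encodes a FYVE-domain protein of early endosomes and lies on chr1:79702262-79776143. Wdfy1 was at 39.1, 39.1 and 37.5 CPM in HET and at 14.1, 14.05 and 14.7 CPM in neo/neo. CTRL libraries held 36.4, 39.0 and 37.8 CPM and neo/- libraries 14.5, 13.9 and 15.5 CPM. The 2 genotypes with a neo allele thus shared a low level, and the 2 without one a high level, with no library in between. The fall from HET to neo/neo was 2.70-fold (log2 fold change -1.43 ± 0.054, adjusted p = 2.22e-09, edgeR), and Wdfy1 was called under all 26 other settings. None of the 3 other tested genes within 250 kb of Wdfy1 was called.

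Mmrn1, which encodes the secreted protein multimerin 1 (chr6:60924976-60989378), was at 7.74, 7.78 and 8.28 CPM in HET and at 13.3, 17.6 and 16.4 CPM in neo/neo, a log2 fold change of 0.99 ± 0.133 (adjusted p = 0.00897, edgeR). Its level was 14.5 to 21.5 CPM in neo/- and 7.59 to 8.61 CPM in CTRL. Mmrn1 thus followed the presence of a neo allele in the same way as Wdfy1, in the opposite direction. For these 2 genes, a response to CHD8 and a difference in strain carried along with the neo allele cannot be told apart.

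Several further genes changed strongly between the 2 genotypes. Muc6, a mucin gene, rose 2.87-fold from a low level, 0.44 to 0.599 CPM in HET and 1.04 to 1.94 CPM in neo/neo (adjusted p = 0.0143, edgeR). Crlf2, which encodes a subunit of the receptor for the cytokine TSLP, was at 1.83 to 1.88 CPM in CTRL, 2.32 to 3.69 CPM in HET, 4.61 to 5.75 CPM in neo/neo and 4.85 to 6.07 CPM in neo/-. Slc9b2, a sodium/proton exchanger gene, rose from 3.10, 3.23 and 3.52 CPM to 7.32, 5.93 and 4.71 CPM (log2 fold change 0.86 ± 0.161, adjusted p = 0.0159), while neo/- libraries were at only 4.04 to 4.91 CPM. Also among the largest rises were Mir6236, Ccdc155 and Ppp1r3g, with log2 fold changes of 1.13, 0.67 and 0.67 at levels under 7 CPM.

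Zcwpw1, which encodes a reader of histone methylation best known from meiosis, showed 4 separate levels. It was at 9.16, 10.1 and 8.74 CPM in CTRL, 13.2, 13.3 and 15.2 CPM in HET, 19.2, 20.5 and 19.8 CPM in neo/neo and 29.05, 26.6 and 27.1 CPM in neo/-. No library of one genotype overlapped with another genotype, and the order was that of falling CHD8 dosage. The step from HET to neo/neo was 0.51 ± 0.072 on the log2 scale (adjusted p = 0.00897, edgeR).

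The 8 largest falls, among called genes with a mean of at least 50 counts and no overlap between the groups, included Wdfy1 and 3 genes of neurotransmitter receptors. Gabra5 and Gabra2 encode subunits of GABA-A receptors, the main inhibitory receptors of the brain, and Grm5 a metabotropic glutamate receptor. Gabra5 fell from 1.80, 1.80 and 1.74 CPM to 0.307, 0.479 and 1.11 CPM (log2 fold change -1.47 ± 0.322, adjusted p = 0.0267), and Grm5 from 1.64 to 2.81 CPM to 0.638 to 1.41 CPM (-1.25 ± 0.286, adjusted p = 0.0296). The study's methods give no strand option for the counting. If reads were counted without regard to strand, those that Gabra5 shares with an overlapping gene cannot be assigned to one of them. Gabra2 was at 27.2, 18.9 and 23.3 CPM in HET and 13.4, 9.98 and 11.6 CPM in neo/neo (-0.99 ± 0.137, adjusted p = 0.00897). Syt4, a synaptotagmin of secretory vesicles, fell from 39.5 to 50.6 CPM to 16.9, 19.5 and 32.6 CPM (-0.96 ± 0.234, adjusted p = 0.0499). In Gabra5, Grm5 and Syt4 the highest neo/neo value was that of replicate 3. Slc1a1, a neuronal glutamate transporter, Aldh1l1, a folate enzyme of astroglia, and Adamts17, a secreted protease, completed the 8 largest falls with log2 fold changes of -0.99, -1.08 and -1.02.

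Genes were then grouped by function in 36 lists. The median log2 fold change over all tested genes was 0.01, with 5.28% called, and serves as the background for each list.

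Early neuron genes were lower in neo/neo. All 35 tested members of this list, which holds microtubule, RNA-binding and transport genes of newborn neurons, had a negative log2 fold change, with a median of -0.26, and 5 were called lower and none higher. Dcx, which encodes the microtubule protein doublecortin of migrating neurons, was at 968, 813 and 840.1 CPM in HET and 627, 636 and 697 CPM in neo/neo, a fall of 1.34-fold (log2 fold change -0.42 ± 0.081, adjusted p = 0.0182, edgeR). Map2, the dendritic microtubule protein, was at 1123, 1013 and 1043 CPM in HET and 795, 847 and 878 CPM in neo/neo (-0.34 ± 0.061, adjusted p = 0.0159). Elavl2, a neuronal RNA-binding protein, fell by 0.26 on the log2 scale and its relative Elavl4, in the list of neurogenic factors, by 0.38.

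Genes of the synapse showed the same direction. In the postsynaptic list 18 of 59 tested genes were called lower and none higher, with a median log2 fold change of -0.30. Gabra2, described above, was a called member, and the GABA-B receptor gene Gabbr2 fell by 0.84 on the log2 scale. Nlgn3, a postsynaptic adhesion gene on the X chromosome, was at 24.2, 19.9 and 20.7 CPM in HET and 17.5, 16.6 and 18.7 CPM in neo/neo (-0.29 ± 0.076, adjusted p = 0.0412). With sex-linked expression as a term the adjusted p of Nlgn3 was 0.0604.

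The presynaptic list of vesicle and exocytosis genes had 13 of 52 tested members called lower and none higher, with a median of -0.30. Napb, which helps to recycle the fusion machinery, fell from 34.0, 33.3 and 34.4 CPM to 22.1, 25.02 and 27.6 CPM (log2 fold change -0.44 ± 0.074, adjusted p = 0.0135, edgeR). Erc2 and Pclo, scaffolds of the active zone where vesicles fuse, fell by 0.48 and 0.31, and Rims1, which docks vesicles there, by 0.54 on the log2 scale. With the replicate block 21 members were called lower.

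Voltage-gated channels had 11 of 42 members called lower and none higher, with a median log2 fold change of -0.25. Cacna2d3, an accessory subunit of calcium channels, was at 11.2, 11.3 and 11.2 CPM in HET and 6.73, 6.46 and 8.97 CPM in neo/neo (-0.60 ± 0.124, adjusted p = 0.0199, edgeR). Cacnb4, another accessory subunit, fell by 0.43. Scn2b, an accessory subunit of sodium channels, was at 7.50 to 7.98 CPM in CTRL, 4.93 to 6.05 CPM in HET, 3.47 to 4.01 CPM in neo/neo and 2.53 to 2.78 CPM in neo/-, so that its 4 genotypes stepped down without overlap in the order of falling dosage.

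Adhesion genes of neurons had the lowest median of the lists of neurons and synapses, -0.35, with 14 of 47 called lower and none higher. Ncam1, the neural cell adhesion molecule, was at 199, 204 and 181 CPM in HET and 129, 152 and 164 CPM in neo/neo (-0.39 ± 0.080, adjusted p = 0.0234, edgeR). Lrrtm2, which organises excitatory synapses, fell by 0.61 and the contactin gene Cntn1 by 0.47. Of 61 axon guidance genes, 6 were called lower and none higher, with a median of -0.14. Sema3c, a secreted guidance cue of cortical cells, was at 26.8, 28.7 and 26.8 CPM in HET and 15.9, 15.2 and 19.6 CPM in neo/neo (-0.70 ± 0.092, adjusted p = 0.00897), with 20.4 to 24.1 CPM in CTRL and 17.8 to 19.6 CPM in neo/-. Sema3a and the guidance receptor Robo1 fell by 0.44 and 0.36. With the replicate block 15 members were called lower and 1 higher.

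Targets of REST, the repressor that keeps neuronal genes silent in other cells, overlap with the synaptic lists. In this list 18 of 84 tested genes were called lower and none higher, with a median of -0.30. Among subunits of the REST and Polycomb complexes, 4 of 49 were called higher and 3 lower, with a median of 0.04. Between neo/- and CTRL 1 of these subunits was called higher and 5 lower, with a median of -0.01. Hmg20b, a subunit of the LSD1-CoREST complex, was at 37.3, 37.2 and 37.0 CPM in HET and 49.9, 51.1 and 54.6 CPM in neo/neo (log2 fold change 0.48 ± 0.084, adjusted p = 0.0147, edgeR). Rcor2, a CoREST gene of neural progenitors, was at 208, 202 and 208 CPM in HET and 251, 269 and 247 CPM in neo/neo (0.31 ± 0.063, adjusted p = 0.0189), and Epop, a partner of Polycomb repressive complex 2, rose by 0.48.

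**Figure D2:**
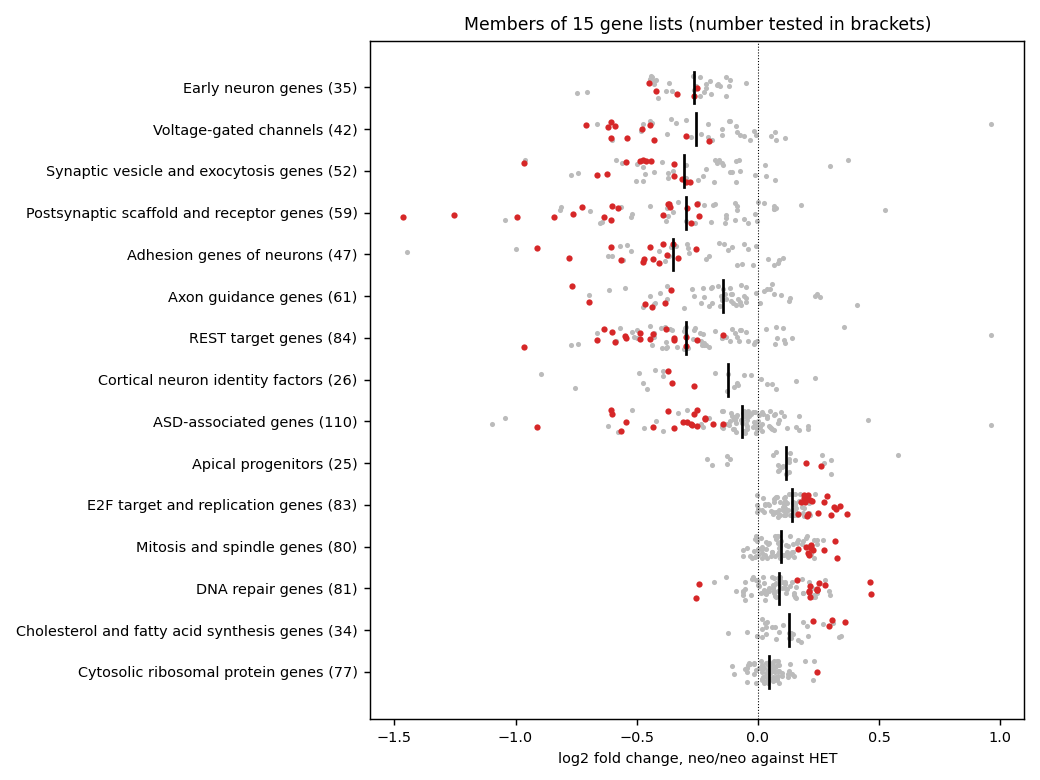
Log2 fold change of neo/neo over HET (x axis) for every tested member of 15 gene lists (y axis). Each point is a gene, red points were called, grey points were not, and the black bar is the list's median. The called genes of the lists of neurons and synapses all lie below 0 and those of the replication, mitosis and cholesterol lists all above 0.

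The called cell cycle genes were higher in neo/neo. Of 83 tested E2F target and replication genes, 19 were called higher and none lower, 80 had a positive log2 fold change, and the median was 0.14. Pold1, the catalytic subunit of the replicative DNA polymerase delta, was at 97.8, 103 and 106 CPM in HET and 134, 129 and 121 CPM in neo/neo (0.32 ± 0.056, adjusted p = 0.0143, edgeR). Dut, which keeps uracil out of DNA, was at 108, 95.8 and 112 CPM in HET and 133, 132 and 120.0 CPM in neo/neo (0.29 ± 0.054, adjusted p = 0.0159). Ccne1, the cyclin that starts S phase, rose by 0.32 on the log2 scale. In all 3 genes the lowest neo/neo value was that of replicate 3.

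Mitosis and spindle genes had 10 of 80 members called higher and none lower, with a median of 0.10. The list's mean log2 difference from the HET mean was 0.025 in neo/neo replicate 3, below 0.038 in HET replicate 3. Neo/neo replicates 1 and 2 were at 0.175 and 0.118. Within the Xist-low libraries 42 members were higher and 38 lower, with a median of 0.006. Within the Xist-high ones 76 were higher and 4 lower, with a median of 0.16. Cenpa, the histone of centromeres, was at 119.8, 127 and 122 CPM in HET and 161, 150.2 and 150.4 CPM in neo/neo (0.33 ± 0.062, adjusted p = 0.0165, edgeR). Cdca8, of the chromosomal passenger complex, rose by 0.27 and the kinetochore gene Cenph by 0.32. In the DNA repair list 12 of 81 were called higher and 2 lower, among them the base excision repair genes Nthl1 and Mutyh, which rose by 0.47 and 0.46, and Rev3l, the catalytic subunit of translesion polymerase zeta, which fell from 143 to 147 CPM to 119 to 127 CPM (-0.25 ± 0.043, adjusted p = 0.0143).

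E2F transcription factors switch on replication genes at the start of S phase and bind 8-base sites near the start of transcription. RefSeq promoters (GRCm38.p6) were matched by symbol for 12602 of the tested genes. The letters TTTCCCGC, TTTGGCGC, TTTCGCGC and TTTGCCGC were searched on both strands, where matches on opposite strands may overlap. At least 1 match lay between 250 bases before and 50 after the start in 26 of 67 promoters of the list (38.8%), against 3.89% of all 12602, 7.94% of the promoters of genes called higher and 2.60% of those of genes called lower. Within the list, 3 of the 15 matched promoters of called genes held a match (20%). An exact match to the core letters of the REST element was in none of the 53 matched promoters of REST targets and in 4 of the 12602. These matches are descriptions of letters and not of bound sites.

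Only the 250 bases before the start are shown, for 3 list members with a match in this shorter stretch, to let the sites be seen in their context. These 3 had the smallest p among the members considered. Members in part of the genome were left out of this choice, so a member with a smaller p may exist. The capitals mark the matched letters. None of the 15 called members with a promoter had a match in this stretch, and none of these 3 genes was called, with log2 fold changes of 0.16 for Mcm5, 0.17 for Rbl1 and 0.15 for Mcm6 and adjusted p of 0.060, 0.0661 and 0.107 (edgeR). Mcm5 and Mcm6 encode subunits of the replicative helicase and Rbl1 the pocket protein p107, which binds E2F.
Mcm5, GRCm38.p6 chr8:75109259-75109508, plus strand: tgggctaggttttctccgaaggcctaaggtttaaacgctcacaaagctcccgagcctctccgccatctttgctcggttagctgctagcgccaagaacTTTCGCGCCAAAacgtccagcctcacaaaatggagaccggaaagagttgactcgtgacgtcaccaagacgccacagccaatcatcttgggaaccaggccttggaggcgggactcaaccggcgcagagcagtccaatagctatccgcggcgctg
Rbl1, GRCm38.p6 chr2:157204535-157204784, minus strand: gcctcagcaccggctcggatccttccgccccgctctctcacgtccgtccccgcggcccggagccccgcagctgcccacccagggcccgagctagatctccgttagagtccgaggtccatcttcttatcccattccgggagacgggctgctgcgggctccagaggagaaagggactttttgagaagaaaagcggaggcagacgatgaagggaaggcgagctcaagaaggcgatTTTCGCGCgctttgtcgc
Mcm6, GRCm38.p6 chr1:128359706-128359955, minus strand: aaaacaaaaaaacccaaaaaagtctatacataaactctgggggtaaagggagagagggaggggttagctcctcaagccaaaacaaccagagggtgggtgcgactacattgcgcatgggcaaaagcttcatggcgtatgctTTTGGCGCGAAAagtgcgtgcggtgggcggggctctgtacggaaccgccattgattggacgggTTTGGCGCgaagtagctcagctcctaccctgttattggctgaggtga
In Mcm5 the matches, on opposite strands, overlap and start 153 and 149 bases before the gene's start. Mcm6 holds 3 matches, 2 of which overlap, and Rbl1 holds 1 match, starting 18 bases before the gene's start.

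Of 25 genes of apical progenitors, 2 were called higher and none lower, 20 had a positive log2 fold change, and the median was 0.11. At an unadjusted p under 0.05 this list held 11 genes, and DESeq2 called 6. Sox2, the factor that maintains neural stem cells, was at 230.0, 218 and 232 CPM in HET and 274.4, 291 and 249 CPM in neo/neo (log2 fold change 0.26 ± 0.069, adjusted p = 0.0457, edgeR), and Tead2, an effector of the Hippo pathway, rose by 0.20. Among 24 genes of intermediate progenitors and neurogenesis, 1 rose and 1 fell, with a median of 0.02. The gene that rose was Dll1, a ligand of Notch, at 118, 124 and 121 CPM in HET and 151, 141 and 132 CPM in neo/neo (0.23 ± 0.059, adjusted p = 0.0421), and the gene that fell was Elavl4. Eomes, which encodes TBR2 of intermediate progenitors, was between 127 and 169 CPM in HET and 139 and 170.3 CPM in neo/neo, with an adjusted p of 0.785.

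Among identity factors of cortical neurons, 3 of 26 were called lower and none higher. Foxp2, a factor of deep-layer neurons, was at 55.1, 62.5 and 54.2 CPM in HET and 43.0, 43.6 and 46.3 CPM in neo/neo (-0.37 ± 0.056, adjusted p = 0.00897, edgeR). Zeb2 and Lmo3 fell by 0.35 and 0.26, and with the replicate block 8 members were called lower and 1 higher. Of 12 genes of Cajal-Retzius neurons, the first neurons of the cortical surface, 1 was called, Ebf1, which fell by 0.47 on the log2 scale.

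Of 110 genes associated with autism, 19 were called lower and none higher, with a median of -0.07. Ube3a, the ubiquitin ligase of Angelman syndrome, was at 194, 192 and 196 CPM in HET and 159, 161 and 162 CPM in neo/neo (-0.27 ± 0.039, adjusted p = 0.00897, edgeR). With length and GC trends taken out, this list had a median of 0.00 and 5 called members, all lower, and Ube3a was no longer called (adjusted p = 0.305).

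Chromatin genes were mostly not called. Of 49 remodellers and readers, 4 were called lower and none higher, among them Chd9, a relative of Chd8, which fell by 0.18, Smarca1 by 0.33 and Dpf3 by 0.72. Of 56 genes of histone and DNA methylation, 2 rose, Mbd3 and the X-linked Suv39h1, by 0.17 and 0.18. With sex-linked expression as a term, their adjusted p were 0.0658 and 0.0803 (edgeR). In the same list 1 gene fell. That gene was Kdm5b, a demethylase of histone H3 lysine 4 linked to autism, at 226, 223 and 219.8 CPM in HET and 190.0, 201 and 197 CPM in neo/neo (-0.19 ± 0.042, adjusted p = 0.0267, edgeR). Tet1, which oxidises methylated cytosine, was at 67.9, 62.7 and 63.0 CPM in HET and 61.1, 61.3 and 58.7 CPM in neo/neo and was not called (adjusted p = 0.209).

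Signalling lists held few calls. In the Wnt pathway, 2 of 64 were called higher and 2 lower, with a median of 0.01. The Wnt receptor Fzd2 rose by 0.21, while the ligand Wnt5a fell by 0.31 and Apc, of the complex that degrades beta-catenin, by 0.23. Axin2, the feedback inhibitor used as a readout of Wnt activity, was at 71.3, 87.6 and 70.6 CPM in HET and 94.99, 79.0 and 73.2 CPM in neo/neo, with overlapping groups (adjusted p = 0.567, edgeR). In the Notch, FGF, BMP and hedgehog list, 2 of 73 were called higher, Dll1 and Lfng, the latter by 0.21, and 1 lower, Bmpr2, by 0.20. With the replicate block 7 Wnt genes were called higher and 4 lower, and in the Notch, FGF, BMP and hedgehog list 6 higher and 4 lower. The growth-promoting kinase Pim1 was at 24.8, 27.96 and 26.5 CPM in HET and 30.4, 29.4 and 27.6 CPM in neo/neo, and was not called (adjusted p = 0.222).

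Of 44 tested p53 target genes, 3 were called higher and 2 lower, with a median of -0.01. Psrc1, a spindle protein, was at 74.6, 74.0 and 73.0 CPM in HET and 91.0, 86.6 and 89.0 CPM in neo/neo (0.27 ± 0.041, adjusted p = 0.0102, edgeR), Gtse1, a mitotic regulator, rose by 0.25, and Trp53inp1, which promotes p53 activity, fell by 0.36.

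Metabolic lists differed among themselves. Of 34 genes of cholesterol and fatty acid synthesis, 4 were called higher and none lower, with a median of 0.13. Srebf1, a master regulator of lipid synthesis, was at 76.5, 85.0 and 80.8 CPM in HET and 106, 103 and 102 CPM in neo/neo (0.36 ± 0.068, adjusted p = 0.0159, edgeR). Insig1, which holds these regulators back in the endoplasmic reticulum, rose by 0.31 and Mvk, mevalonate kinase, by 0.23. With the replicate block 8 members of this list were called, and in the Xist-low libraries alone its median was -0.04.

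In the list of amino acid transport and ATF4 genes, 4 of 48 were called higher and 1 lower. Slc1a5, a glutamine transporter, was at 36.7, 40.6 and 37.8 CPM in HET and 53.4, 52.8 and 49.7 CPM in neo/neo (0.44 ± 0.078, adjusted p = 0.0147), with 33.4 to 42.8 CPM in CTRL and 44.9 to 51.0 CPM in neo/-. Slc43a1 and Shmt1, another amino acid transporter and an enzyme of one-carbon metabolism, rose by 0.37 and 0.30. None of 34 glycolysis and hypoxia genes was called by edgeR, although 15 had an unadjusted p under 0.05 and 8 were called by DESeq2, and 4 were called higher and 1 lower with the replicate block, among them Aldoa, a glycolytic enzyme, at 259, 269 and 260.5 CPM in HET and 329, 382 and 276.99 CPM in neo/neo (adjusted p = 0.0515, and 0.0203 with the block).

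Of 86 genes of oxidative phosphorylation, 2 were called higher and 4 lower. The called members mt-Nd4, mt-Nd5 and mt-Nd6, subunits of complex I encoded by the mitochondrial genome, fell by 0.32, 0.30 and 0.32, and mt-Nd5 was at 2674, 2996 and 2889.9 CPM in HET and 2229, 2448 and 2299 CPM in neo/neo (adjusted p = 0.0203). Of 77 cytosolic ribosomal protein genes, 1 was called, Rplp2, which rose by 0.25, and the list's median was 0.05. Of 26 stress and immediate early genes, 1 was called, Ier2, which rose by 0.35. Of 42 imprinted genes, 1 was called higher and 4 lower, among them Inpp5f and Peg13, which fell by 0.33 and 0.23, and 7 were called lower with the replicate block.

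Lists of other cells and regions were read for differences in dissection. Keratin and surface ectoderm genes had 3 of 15 called lower, Ripk4, Dsp and Esrp1, all at or under 3.14 CPM. Esrp1 was at 0.104, 0.683 and 1.24 CPM in HET and at 0, 0.083 and 0.038 CPM in neo/neo. Of 41 collagen, laminin and mesenchyme genes 2 were called lower, Bgn and Col6a1, and the summed level of the list was 3016 to 4156 CPM in HET and 3032 to 3349 CPM in neo/neo. In that sum the highest library was HET replicate 2, and with the replicate block 6 members were called lower. Of 26 tested diencephalon and midbrain genes none was called by edgeR, 3 had an unadjusted p under 0.05 and 1 was called by DESeq2, and their median of -0.54 became 0.47 without HET replicate 2. Of 30 ventral telencephalon genes 2 were called lower, Erbb4 and Ebf1, with summed levels of 1514 to 1773 CPM in HET and 1490 to 1653 CPM in neo/neo. Of 20 endothelial genes 1 was called, Egfl7, which rose by 0.28, and no blood, microglial or dorsal midline gene was called by edgeR. At an unadjusted p under 0.05 these 3 lists held 4, 2 and 7 genes, and DESeq2 called 1, 0 and 3. Rspo1, of the dorsal midline, passed with the replicate block (adjusted p = 0.0678 without it and 0.0155 with it). Without HET replicate 2 the early neuron list had 5 and the replication list 7 called genes.

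**Figure D3:**
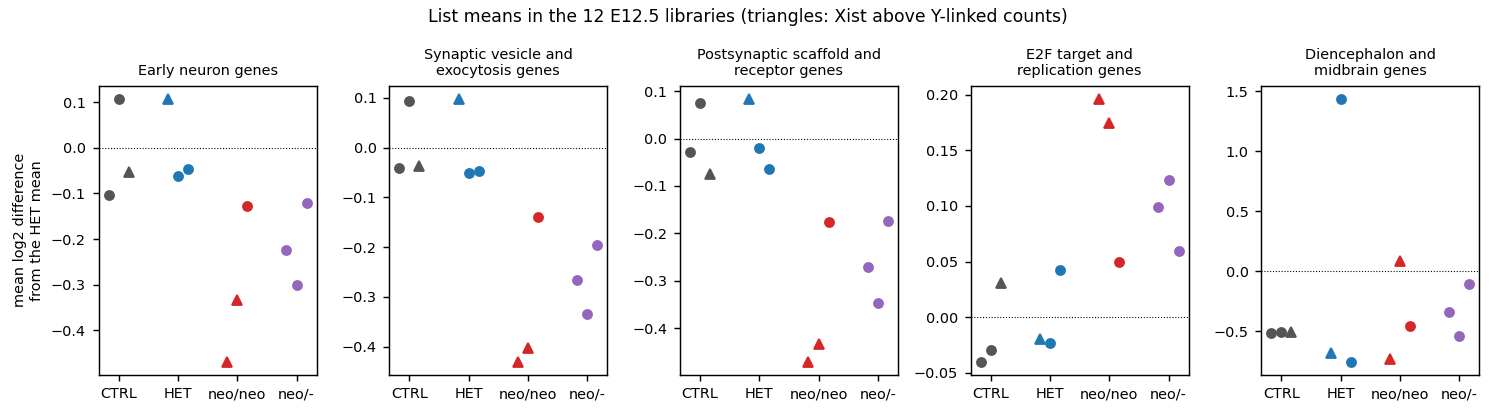
Mean over the members of 5 gene lists of the log2 level in a library minus the mean of the 3 HET libraries (y axis), for the 12 E12.5 libraries by genotype (x axis). Points are libraries, triangles mark those with Xist above Y-linked counts. In the early neuron list neo/neo replicates 1 and 2 are at -0.47 and -0.33 and replicate 3 at -0.13, and HET replicate 2 stands apart at 1.44 in the diencephalon and midbrain list.

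The 3 neo/neo libraries did not differ from HET to the same extent. In the early neuron list, the mean log2 difference from the HET mean was -0.47, -0.33 and -0.13 in neo/neo replicates 1, 2 and 3, and 0.11, -0.06 and -0.05 in the HET libraries. Replicate 3 was the nearest to HET and the only neo/neo library with Y-linked counts. In the replication list the values were 0.20, 0.17 and 0.05 in neo/neo and -0.02, -0.02 and 0.04 in HET. In the channel list the groups overlapped, with neo/neo replicate 3 at -0.061 and HET replicate 3 at -0.075. For REST targets these 2 libraries were at -0.093 and -0.085. Cortical identity factors overlapped too, with neo/neo replicate 3 at -0.059 and HET replicate 2 at -0.170. Within the 3 Xist-high libraries, 2 neo/neo and 1 HET, the median difference was -0.46 over early neuron genes and 0.19 over replication genes. Within the 3 Xist-low libraries, 1 neo/neo and 2 HET, it was -0.09 and 0.03. The direction of these medians was the same within both sets, and the values within the Xist-low set were nearer to 0. The counts of called members moved with these libraries. Without neo/neo replicate 3, 20 early neuron genes and 34 vesicle genes were called lower and 36 replication genes higher, whereas without neo/neo replicate 1, neo/neo replicate 2 or HET replicate 1 no early neuron or replication gene and at most 1 vesicle gene was called, with medians of the early neuron list between -0.27 and -0.22. In the 6 libraries alone, no early neuron, vesicle, postsynaptic, adhesion or channel gene and 2 replication genes were called, and the medians of the early neuron and replication lists were -0.27 and 0.13. With the sex term 4 early neuron, 7 vesicle and 7 postsynaptic genes were called lower and 6 replication genes higher.

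X-linked genes were more frequent among the genes called lower, with 57 of 617 (9.24%) against 7 of 377 called higher (1.86%) and 3.48% of all tested. With sex-linked expression as a term, 23 X-linked genes were called lower and none higher. Of the 617 called lower the median exon length was 6475 bases and the median GC content 44.1%, against 3154 bases and 55.1% for the 377 called higher, and 3398 bases and 49.3% for all tested genes. When tested genes were cut by exon length into 5 bins of equal size, the bin of longest genes had a median log2 fold change of -0.05 with 322 called lower and 43 higher, and the bin of shortest genes a median of 0.06 with 10 called lower and 61 higher. After removal of trends with length and GC content in each library 315 genes were called (1.67%), 178 higher and 137 lower, whereas 37.9% of the calls as reported were higher. In that fit the medians of the early neuron and replication lists were -0.28 and 0.16, with none of the former and 11 of the latter called. Whether length, GC content or RNA quality had a part in the calls was not tested.

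The libraries of neo/- and CTRL share no embryo with this comparison and offer the same genes in another pair of groups, with a larger step in dosage. In both pairs only the group of lower dosage carries a neo allele. A shared direction therefore cannot tell dosage of CHD8 from other effects of the neo allele. Of the 377 genes called higher in neo/neo, 355 (94.2%) were higher in neo/- than in CTRL, and 157 were called so, against 5.48% of all tested genes called higher there. Of the 617 called lower, 590 (95.6%) were lower in neo/- than in CTRL, and 292 were called so, against 5.99% of all tested. Among all tested genes, 50.3% were higher in neo/-. For the 42 genes called from the 6 libraries alone, 19 of 20 higher and 22 of 22 lower kept their direction. Across the 18810 genes the 2 sets of log2 fold changes had a Pearson r of 0.31 and a Spearman rho of 0.42, as a description, since genes are not independent replicates. The genes with long exons were again lower, with a median of -0.08 in the bin of longest and 0.08 in the bin of shortest genes, while the Xist-high library, 1 of 6, was here on the CTRL side.

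**Figure D4:**
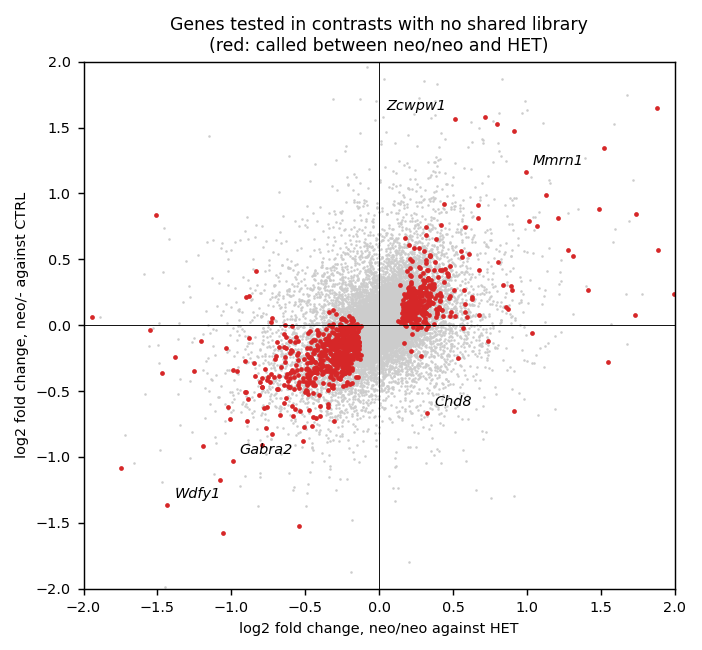
Log2 fold change of neo/- over CTRL (y axis) against that of neo/neo over HET (x axis) for tested genes, with those called between neo/neo and HET in red and the rest in grey. Axes run from -2 to 2, and 40 genes, 6 of them called, lie outside. Most red points lie in the lower left and upper right corners, and Chd8 lies in the lower right one.

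Early neuron genes were lower in neo/- for 33 of 35 members (median -0.18, 6 called lower), vesicle genes for 47 of 52 (median -0.27, 15 called lower) and voltage-gated channels for 36 of 42 (median -0.30, 14 called lower). Replication genes were higher for 71 of 83 (median 0.11, 21 called higher and 2 lower). Genes with a call in both contrasts in opposite directions were 4, of which Chd8 was one, at -0.67 between neo/- and CTRL. Mdk, Sirt6 and Gm16867 were the others and were named after their values were seen.

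Some differences between neo/neo and HET were smaller and without a call in the other pair. Slc9b2 had a log2 fold change of 0.13 between neo/- and CTRL (adjusted p = 0.652, edgeR), and Ppp1r3g of 0.08. Of the 8 largest falls, Wdfy1, Gabra2 and Aldh1l1 were called lower in neo/- too, and Adamts17 was lower by 0.62 (adjusted p = 0.061, edgeR). Gabra5, Grm5, Syt4 and Slc1a1 were lower there by 0.37, 0.35, 0.35 and 0.34 without a call (adjusted p = 0.336 to 0.508, edgeR). Mean CTRL levels of Gabra5 and Syt4 were 1.34 and 35.7 CPM, below the HET means of 1.78 and 45.1 CPM. Lmo3, Dll1 and Bgn had values of 0.01 each between neo/- and CTRL. Gpat2, a germline acyltransferase, behaved the other way: it was at 0.652, 0.614 and 0.65 CPM in HET and 0.898, 0.942 and 0.678 CPM in neo/neo and was not called (adjusted p = 0.336), and between neo/- and CTRL it rose by 1.83 (adjusted p = 0.00023). Whether the effects differ between the 2 contrasts was not tested.

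The calls that held under most conditions were few. A set of 27 genes was called with all 12 libraries, with the replicate block, in the 6 libraries alone, with the sex term and after removal of length and GC trends, 13 higher and 14 lower. It included Chd8, Zcwpw1, Mmrn1, Slc1a5, Aaas, Hmg20b, Srebf1, Pold1, Cenpa and Psrc1 among the higher and Wdfy1, Sema3c, Fam177a, Elavl4 and Trp53inp1 among the lower. Aaas, which encodes the nuclear pore protein aladin, was at 63.5, 61.5 and 65.3 CPM in HET and 81.9, 82.1 and 75.2 CPM in neo/neo (0.33 ± 0.046, adjusted p = 0.00897, edgeR), and Fam177a was at 22.8 to 24.7 CPM in HET and 17.1 to 18.7 CPM in neo/neo (-0.42 ± 0.056, adjusted p = 0.00897). Of the 994 genes, 19 were called whichever single library of the 12 was left out.

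**Figure D5:**
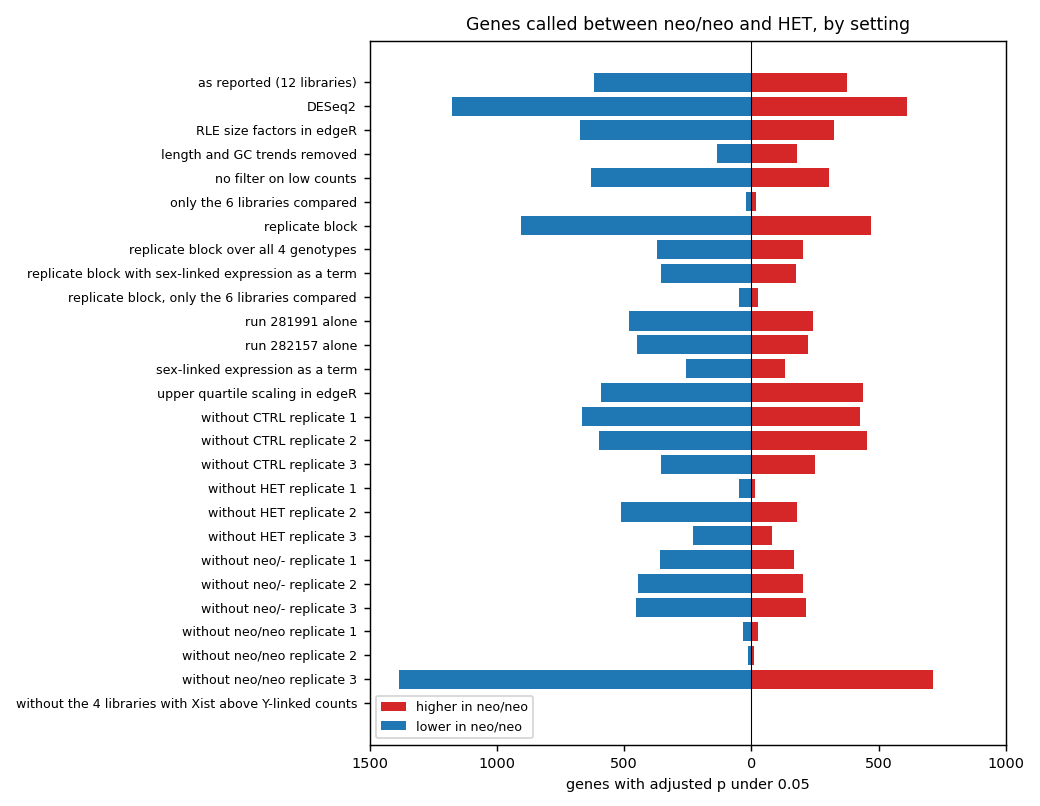
Number of genes called between neo/neo and HET (x axis, lower to the left and higher to the right) in the fit as reported and under 26 other settings (y axis). The bars run from 0. The count is 994 as reported, 42 in the 6 libraries alone, 23 without neo/neo replicate 2 and 2100 without neo/neo replicate 3.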

How the data were processed

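RNA of single E12.5 neocortices was sequenced from 4 genotypes (n = 3 each). The authors selected mRNA, trimmed paired reads with Trim Galore 0.4.1, aligned them to GRCm38.p4 with TopHat2 2.1.0 and counted them on genes with featureCounts 1.5.0, with no strand option given in their methods. The deposited table holds the authors' unnormalised counts for each gene in each run. The table for E10.5 was not used here. All columns of the E12.5 table were mapped to samples, and the 2 runs of a library were summed.

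The test was edgeR 4.0.16 in R 4.3.3 (filterByExpr, TMM scaling, robust quasi-likelihood fit of 12 libraries, genotype as the only term), after tests on simulated data. Genes of 36 lists written from general knowledge, the comparison and its tests were chosen with earlier results of these data known. Named genes are Chd8, 10 genes the study names, the 8 largest rises and falls (mean of at least 50 counts, no overlap between groups, no predicted genes), the 6 smallest adjusted p (ties by p), up to 3 called members per list (or the member with the smallest p), and called neighbours within 250 kb. Some genes that this rule selects are not reported here. Outside the rule are tissue markers, the genes whose promoters are shown, and genes named from a count.

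Deviations of same-numbered HET and neo/neo libraries from their group means correlated at 0.11, 0.20 and 0.20, and other pairings at 0.00054 or less. The replicate block rests on these values alone, which come from the same counts. Deviations from a group mean tie the pairings together, so positive values for some bring negative values for others. By the study's crosses the same-numbered embryos were not littermates, and those of replicates 1 and 3 also matched in Xist state. The labels name no source of this pairing. Alternatives were DESeq2 1.42.0, RLE and upper quartile scaling, no low-count filter, only 6 libraries, replicate blocks, a sex-linked term, each run alone, removal of length and GC trends (loess, span 0.5; GC known for 99.4% of tested genes) and omission of each library. A block with the sex term, and omission of the 4 Xist-high libraries, were added after the data were seen. Replicates are separate embryos. Promoter sequences came from RefSeq (GRCm38.p6). Figures were drawn with matplotlib 3.10.9.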

Additional observations from a re-analysis of the deposited data

How the results depend on the processing

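The number of called genes (994, with 377 higher and 617 lower) moved by over 1.5 times under several settings. DESeq2 called 1788 genes (611 higher, 1177 lower). The fit of only the 6 libraries called 42 (20 higher, 22 lower), the sex term left 387 (132 higher, 255 lower) and removal of length and GC trends 315 (178 higher, 137 lower). The replicate block gave 1375 genes, 963 of them among the 994, and a block over all 4 genotypes 572 (201 higher, 371 lower), a block in only the 6 libraries 77 (27 higher, 50 lower) and the block with the sex term 528 (174 higher, 354 lower). Of the results named above, the block changed the calls of Zfp219, Aldoa and Rspo1 and, by over 1.5 times, the counts of lists whose blocked values stand beside them. Each sequencing run alone gave 241 or 222 genes called higher. Without the 4 Xist-high libraries 3 genes were called (1 higher, 2 lower), all 3 (100%) with the same direction between neo/- and CTRL, and Chd8 was at 0.34 (adjusted p = 0.279).

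With each library left out in turn, between 23 and 2100 genes were called, 10 to 715 higher and 13 to 1385 lower, and Chd8 was called in every one of these 12 fits, at 0.31 to 0.35. The share with the same direction between neo/- and CTRL, 95.1% as reported, ranged from 91.3% to 98.4% over these fits, and was 97.6% for the genes called from only the 6 libraries, 96.3% with the block over all genotypes, 96.6% with the block and the sex term and 98.2% with the sex term. The cause of these shifts was not tested. Axin2, not called under any of these settings, ranged from -0.014 without neo/neo replicate 1 to 0.21 without HET replicate 2, and was at -0.11 without the Xist-high libraries. Tet1 was at 0.034 with length and GC trends removed. No other named gene changed direction. RLE and upper quartile scaling and no filter on low counts kept the count within 1.5 times. Every library held at least 38774591 counts, and genes at about 1 CPM or below, such as Muc6 and Esrp1, rest on few of them.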
